A study of Mus musculus with 3 samples.

Results

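Annexins and galectins are protein families that bind the surface of cell membranes. The 10 genes described here are the annexins Anxa1, Anxa2, Anxa3, Anxa4, Anxa5, Anxa6, Anxa7 and Anxa11 and the galectins Lgals1 and Lgals3. They were chosen by name: every probe other than a control whose gene name in the array files is one of these symbols was taken. That gave 16 probes of the 41174 on the array and 10 of its 27962 distinct gene names.

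The arrays carried RNA of mouse neural stem cells (NSCs). RNA from NSCs labelled as Dnmt3a knockout (KO, genotype Dnmt3a-/-) was hybridised together with RNA from NSCs labelled wildtype (WT) on 3 two-colour Agilent arrays. Per the labels, each array was a biological replicate of its own. Both genotypes were NSCs derived from mouse embryonic stem cells by way of neurospheres, and both were grown in serum-free N2B27 medium with EGF and bFGF at 10 ng/ml each. Dnmt3a encodes an enzyme that adds new methyl groups to DNA. The labels do not say how many cell clones were used or which part of Dnmt3a was deleted. The RNA labelled KO carried the green dye Cy3 and the RNA labelled WT the red dye Cy5 on all 3 arrays, so an effect of dye on a single probe and an effect of genotype cannot be told apart. No p-value below covers more than the spread among these 3 arrays.

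Annexins bind acidic phospholipids in a calcium-dependent way through a folded core of repeated domains, and each has its own N-terminal tail that binds partners such as S100 proteins. They take part in membrane repair, vesicle traffic and the organisation of the membrane and its underlying actin. Galectins are lectins that bind beta-galactosides on glycoproteins, are secreted without a signal peptide, and cross-link receptors at the cell surface. In the adult brain Lgals1 is made by neural stem cells and astrocytes of the stem cell niche, and Lgals3 is best known from microglia and macrophages.

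The measurement at each member is the binding of its RNA to a 60-base probe, and the probes of 3 of the member genes are given first. Anxa3, which had the highest ratio, is not among these 3. The printed probes belong to Anxa1, the annexin with the clearest difference among those with a printed probe, to Anxa2, whose pair of probes differed from each other, and to Lgals3. The letters are as the array files give them, 5′ to 3′, with no part set in capitals. The files place them on mouse build mm7.
Anxa1 A_51_P283590: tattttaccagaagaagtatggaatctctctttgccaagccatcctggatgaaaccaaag
Anxa2 A_51_P165342: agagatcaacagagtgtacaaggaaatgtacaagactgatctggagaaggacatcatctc
Anxa2 A_52_P62037: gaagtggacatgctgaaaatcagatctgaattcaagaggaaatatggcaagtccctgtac
Lgals3 A_51_P101929: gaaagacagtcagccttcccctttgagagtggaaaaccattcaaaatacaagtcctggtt
The Anxa1 probe lies on chromosome 19 from 20075762 to 20074249, on the minus strand. The Anxa2 probes lie on chromosome 9, A_51_P165342 from 69514817 to 69515591 and A_52_P62037 from 69521491 to 69521550. The Lgals3 probe lies on chromosome 14 from 42712515 to 42713331. The placed stretch was 1514 positions long for Anxa1, 775 for Anxa2 A_51_P165342 and 817 for Lgals3, each longer than the 60 bases of the probe, so each of these probes matches the genome in separate pieces. No annotation of mm7 was used here, so exons and untranslated regions were not assigned.

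The most marked difference within the group was between a pair of annexins and all the other members. Anxa3 was 2.02-fold and Anxa1 1.70-fold higher in the RNA labelled KO, while Anxa5, Anxa6 and Anxa11 had mean log2 ratios between 0.01 and 0.10 that did not pass the test. Anxa2, Anxa4 and Anxa7 each had 1 probe slightly higher and another that did not pass. Lgals3 did not pass, and Lgals1 was too bright to be measured in the RNA labelled WT. The test was limma on the mean log2 ratio (KO over WT, as labelled) against 0, with Benjamini-Hochberg adjusted p under 0.05 over all tested probes as the threshold.

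Of the 16 member probes, 14 were well above background and were tested, and 2 were not well above background in either channel. Of the 14, 13 could be measured and 1 was saturated on every array in a channel. Among the 13, 5 were higher, 0 were lower and 8 did not pass the threshold (limma). Over all 26538 measurable probes, 20.6% were higher, 23.7% were lower and 44.3% passed in either direction, so members passed in either direction about as often as probes at large. The median log2 ratio was 0.08 over the 13 member probes and -0.01 over all measurable probes, and the median absolute log2 ratio was 0.10 and 0.09. Of the 9 member genes that could be measured, 5 had at least 1 probe higher, and for 2 of them, Anxa1 and Anxa3, every measurable probe was higher.

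Dnmt3a, the targeted gene, was not lower in the RNA labelled KO: probe A_52_P76146 had a mean log2 ratio of 0.99 ± 0.08 (SD, n = 3; limma, adjusted p = 6.5e-07), and its other probes were at 0.61 and 0.76, all higher and against the label. The labels do not tell whether these probes lie in the deleted part, and the cause of their direction was not tested. Each direction below is that of the labels. The arrays' log2 ratios correlated across probes at r = 0.887 to 0.914, though probes are not independent replicates. Spots well above background made up 64.1% to 65.6% of the KO channel and 66.1% to 69.4% of the WT channel. An array had 1 to 13 saturated spots in the KO channel and 111 to 172 in the WT channel. All 10 neural stem cell markers were tested, of which 1 was higher and 7 were lower, Cdh2 (-0.47) and Sox2 (-0.36) by the most. The higher one, Pax6, with 1 of 2 probes, had low spot signals of 72 to 87 over both channels. Those of Sox1 (71 to 88) and Hes5 (79 to 132) were also low, and these genes are named for that reason, after their values were seen. The summed intensity of the 10 was 55700 to 57056 in the RNA labelled KO and 64451 to 67444 in the RNA labelled WT. Among fibroblast markers Col1a1 and Col3a1 were saturated, Postn was at 0.95 with 1 of 2 probes higher, and Col1a2 at -1.48 with 2 of 2 lower. Of the 10 fibroblast markers 2 were higher and 5 lower, and the summed intensity of the 8 that were not saturated was 89882 to 91676 in the RNA labelled KO and 121786 to 122307 in the RNA labelled WT.

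**Figure D1:**
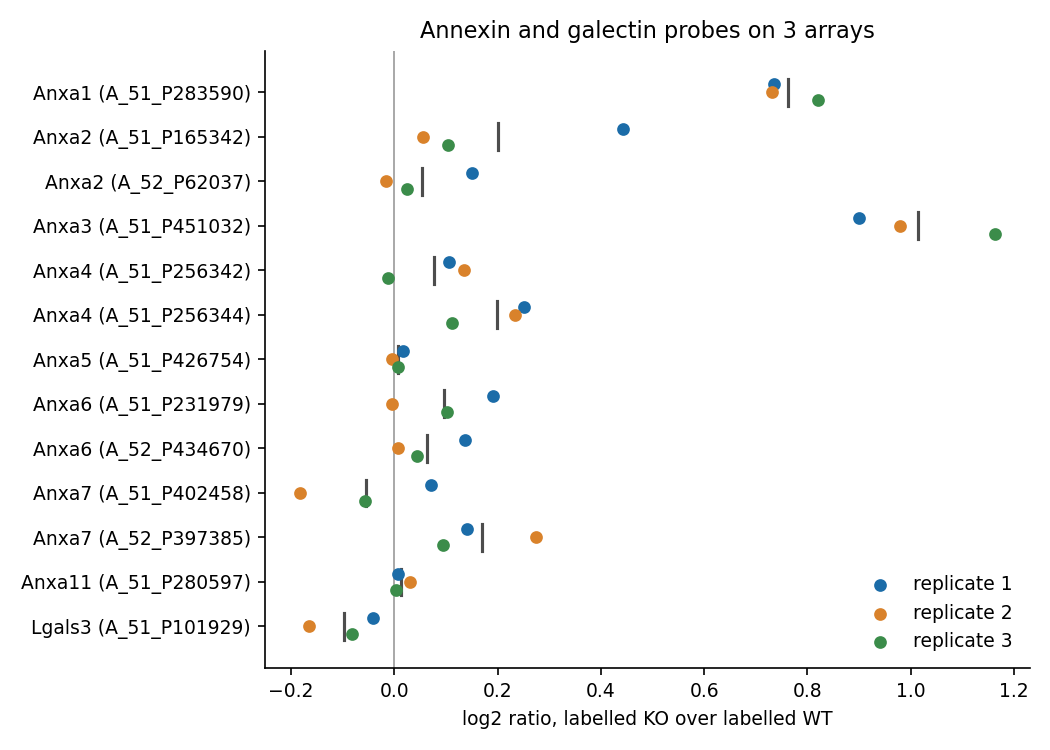
Log2 ratio, KO over WT as labelled (horizontal axis) for the 13 measurable member probes (rows), 1 point per array and a bar at the mean of the 3 arrays. The 3 points of Anxa3 lie at 0.90 to 1.16 and those of Anxa1 at 0.73 to 0.82, right of every point of the other members.

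Anxa1 encodes annexin A1, a glucocorticoid-induced protein that restrains phospholipase A2 and, once released, damps inflammation through formyl peptide receptors. Its log2 intensity was 14.20, 14.27 and 14.25 in the RNA labelled KO on arrays 1, 2 and 3, against 13.47, 13.54 and 13.43 in the RNA labelled WT. All 3 values labelled KO lay above all 3 labelled WT. The log2 ratio was 0.74, 0.73 and 0.82, with a mean of 0.76 ± 0.05 (SD, n = 3), a 95% confidence interval of 0.68 to 0.85 and adjusted p = 1.7e-06 (limma). By absolute ratio it ranked 464th of the measurable probes, and 0.746% of them had a higher ratio.

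The distance of the Anxa1 ratio from 0 depended on the loess normalization, which removes the trend of the ratio with brightness. Its spot signal before any correction was 12648, 17635 and 14034 in the channel labelled KO, against 17892, 15409 and 12628 in the channel labelled WT. The dyes are not on 1 scale before correction, so these signals do not give a direction. On array 1, where the KO signal was the lower, the median spot signal was 75.7 in the KO channel and 105 in the WT channel. With each array only centred on its median, the mean log2 ratio of Anxa1 was 0.18 and no longer passed (limma, adjusted p = 0.171). In that setting the median of the tested probes was -0.22. The distance of Anxa1 from Anxa5, a member of similar brightness, hardly moved. It was 0.76 ± 0.05 with loess and 0.75 ± 0.05 with median centring (SD, n = 3 each). In the authors' deposited table Anxa1 was at 0.76, 0.81 and 0.86 on arrays 1, 2 and 3.

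Anxa3 encodes annexin A3, found in neutrophil granules and in microglia, and also described in progenitor cells. Probe A_51_P451032, at 96059115 to 96059174 of chromosome 5 (mm7), read at a log2 intensity of 13.27, 13.43 and 13.83 in the RNA labelled KO, against 12.37, 12.45 and 12.66 in the RNA labelled WT. The channels did not overlap, as was so at 4 of the 13 measurable member probes and at 42.9% of all measurable probes. Array 3 was the highest in both channels. The log2 ratio was 0.90, 0.98 and 1.16, with a mean of 1.01 ± 0.14 (SD, n = 3), a 95% confidence interval of 0.90 to 1.13 and adjusted p = 2.4e-06 (limma). It ranked 231st by absolute ratio, and 0.358% of the measurable probes had a higher ratio.

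Anxa3 passed in all 14 alternative settings, with its lowest mean log2 ratio, 0.47, under median centring (limma, adjusted p = 0.0132). In the authors' deposited table it was at 0.88, 1.00 and 1.12. The other Anxa3 probe, A_51_P430240 at 96013316 to 96013375, was not well above background in either channel on any array and was not tested.

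Among the 13 measurable probes, Anxa3 had the highest ratio and Anxa1 the next on each of the 3 arrays and in 14 of the 14 alternative settings. The third highest ratio was 0.44, 0.27 and 0.11 on arrays 1, 2 and 3 and belonged to a different probe on each. On array 1, 12 of the 13 probes had a ratio above 0, on array 2 there were 8, and on array 3 there were 10.

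**Figure D2:**
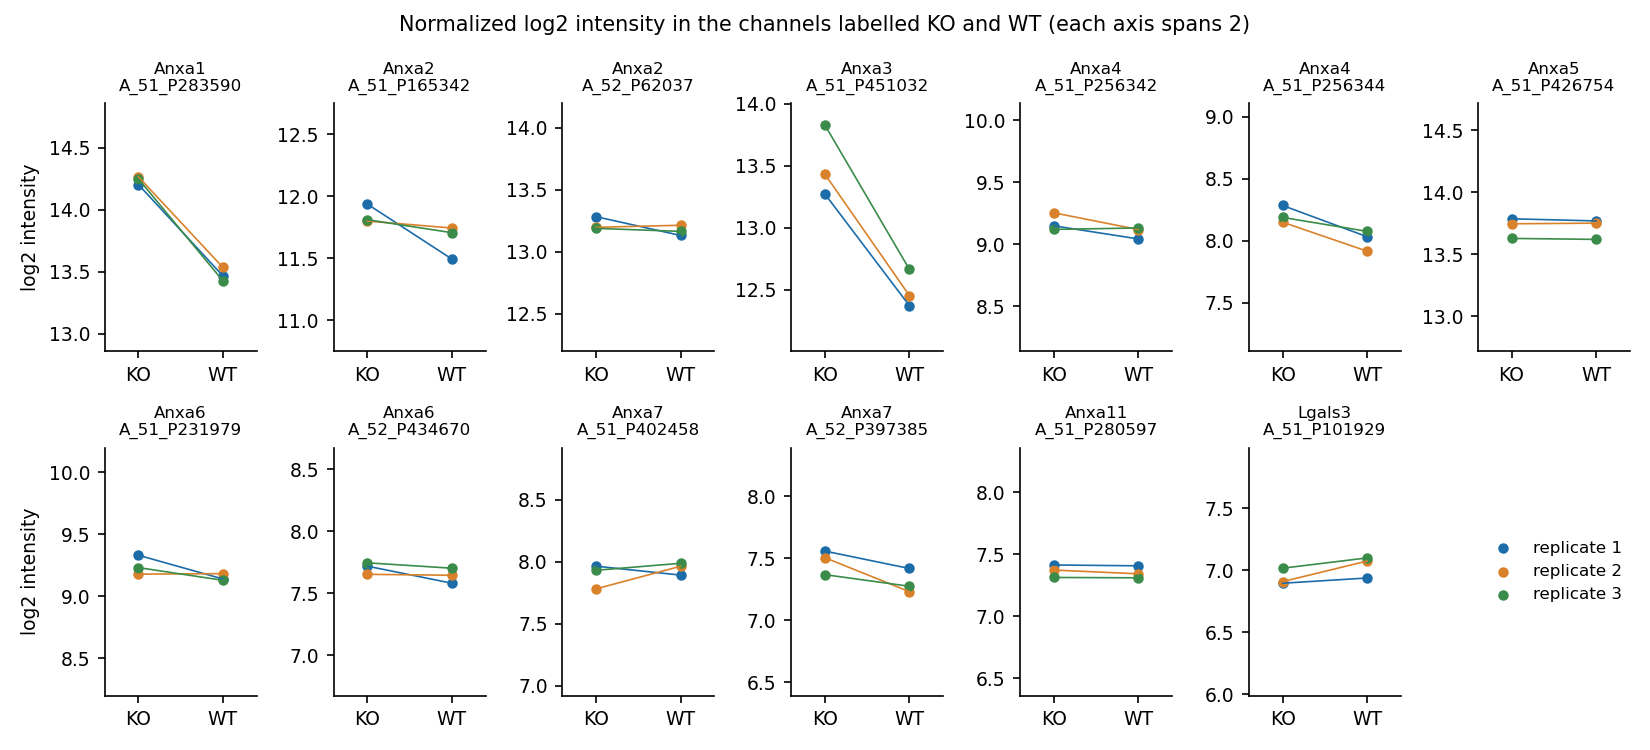
Normalized log2 intensity (vertical axis, spanning 2 log2 units in each panel) of the 13 measurable member probes in the channels labelled KO and WT, with 1 line per array. The lines of Anxa1 and Anxa3 drop from KO to WT on all 3 arrays, while those of Anxa5 and Anxa11 are nearly level.

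Anxa2 encodes annexin A2, which with S100a10 forms a tetramer at the cell surface that binds plasminogen and its activator. Probe A_51_P165342 had a log2 intensity of 11.94, 11.80 and 11.81 in the RNA labelled KO, against 11.50, 11.75 and 11.71 in the RNA labelled WT. The channels did not overlap, though array 1 carried most of the difference. The log2 ratio was 0.44, 0.06 and 0.10, with a mean of 0.20 ± 0.21 (SD, n = 3; limma, adjusted p = 0.045). Without array 1 the mean was 0.08 (limma, adjusted p = 0.137), without array 3 it was 0.25 (adjusted p = 0.0546), and without array 2 it was 0.27 (adjusted p = 0.00152). Of the 13 alternative settings that hold this probe, it was past the threshold as higher in 4 and as lower in 1.

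The other Anxa2 probe, A_52_P62037, had a log2 intensity of 13.28, 13.20 and 13.19 in the RNA labelled KO, against 13.13, 13.21 and 13.16 in the RNA labelled WT. The channels overlapped, and array 1 again had the highest ratio. Its mean log2 ratio was 0.05 ± 0.09 (SD, n = 3), with a 95% confidence interval of -0.04 to 0.15 (limma, adjusted p = 0.33). The ratio of A_51_P165342 exceeded that of A_52_P62037 by 0.29, 0.07 and 0.08 on arrays 1, 2 and 3. Both Anxa2 probes were lower in the RNA labelled KO with median centring, at -0.29 (limma, adjusted p = 0.00889) and -0.50 (adjusted p = 0.00256).

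Anxa4 encodes annexin A4, a protein of epithelial membranes that assembles on the bilayer and stiffens it. Probe A_51_P256344, at 86812526 to 86812466 of chromosome 6 (mm7), read at a log2 intensity of 8.28, 8.15 and 8.19 in the RNA labelled KO, against 8.03, 7.92 and 8.08 in the RNA labelled WT. The channels did not overlap, and the ratio was lowest on array 3. The mean log2 ratio was 0.20 ± 0.08 (SD, n = 3; limma, adjusted p = 0.0041), or 1.15-fold. The call was lost with the background model fitted on all spots (0.07, adjusted p = 0.111), with the authors' deposited values (0.19, adjusted p = 0.0826) and with median centring, where the mean was -0.09 (adjusted p = 0.313).

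Probe A_51_P256342 of Anxa4, from 86812175 to 86812115, had log2 ratios of 0.11, 0.13 and -0.01, and its mean of 0.08 ± 0.08 did not pass (SD, n = 3; limma, adjusted p = 0.16). It passed as higher with the scanner software's processed signals (0.19, adjusted p = 0.0327) and with the authors' deposited values (0.19, adjusted p = 0.0484), and as lower with median centring (-0.30, adjusted p = 0.0191). It read lower than A_51_P256344 by 0.15, 0.10 and 0.12 on arrays 1, 2 and 3, a difference with an SD of 0.024. The third Anxa4 probe, A_52_P456440, was not well above background in either channel and was not tested.

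Anxa5 encodes annexin A5, which covers exposed phosphatidylserine and is the reagent used to stain dying cells. It had a log2 intensity of 13.79, 13.74 and 13.63 in the RNA labelled KO, against 13.77, 13.75 and 13.62 in the RNA labelled WT. The channels overlapped, and both were brightest on arrays 1 and 2. The log2 ratio was 0.02, -0.01 and 0.01, with a mean of 0.007 ± 0.011 (SD, n = 3), a 95% confidence interval of -0.07 to 0.08 and adjusted p = 0.89 (limma). Median centring gave -0.57 (adjusted p = 0.00313), on a scale where the median of the tested probes was at -0.22.

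Anxa6 encodes annexin A6, the largest annexin, with a doubled core, which links membranes and cholesterol traffic. Its probe A_51_P231979, at 54941902 to 54941843 of chromosome 11 (mm7), had log2 ratios of 0.19, -0.004 and 0.10, with a mean of 0.10 ± 0.10. Its probe A_52_P434670, from 54948021 to 54947962, had 0.14, 0.008 and 0.04, with a mean of 0.06 ± 0.07 (SD, n = 3 each). Neither passed (limma, adjusted p = 0.11 and 0.22), the channels overlapped at both, and the array order of the ratios was the same at both probes. A_51_P231979 passed as higher without array 2 (0.15, limma, adjusted p = 0.0299) and as lower with median centring (-0.28, adjusted p = 0.0125).

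Anxa7 and Anxa11 encode the annexins with the longest N-terminal tails, which bind the calcium-binding proteins sorcin and Pdcd6. The probes of Anxa7 disagreed. Probe A_52_P397385, at 18115549 to 18115490 of chromosome 14 (mm7), read at a log2 intensity of 7.56, 7.51 and 7.37 in the RNA labelled KO, against 7.42, 7.23 and 7.28 in the RNA labelled WT. The channels overlapped, while the ratio within each array was above 0, at 0.14, 0.27 and 0.09. Its mean was 0.17 ± 0.09 (SD, n = 3; limma, adjusted p = 0.012), and the call was lost without array 2 (0.12, adjusted p = 0.079).

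Probe A_51_P402458 of Anxa7, from 18112634 to 18112575, had log2 ratios of 0.07, -0.18 and -0.06, with a mean of -0.06 ± 0.13 (SD, n = 3; limma, adjusted p = 0.39). It read lower than A_52_P397385 by 0.07, 0.46 and 0.15 on arrays 1, 2 and 3, so array 2 held the extreme of both probes in opposite directions. The call of A_52_P397385 was also lost with the background model fitted on all spots (0.04, adjusted p = 0.0767), with the scanner software's processed signals (0.20, adjusted p = 0.07), with the authors' deposited values (0.19, adjusted p = 0.099), with the channels as independent samples (adjusted p = 0.0848) and with median centring (-0.03, adjusted p = 0.783).

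Anxa11 encodes annexin A11, which tethers RNA granules to lysosomes. On chromosome 14 from 23558469 to 23558528 (mm7), its probe A_51_P280597 had a log2 intensity of 7.41, 7.37 and 7.31 in the RNA labelled KO, against 7.41, 7.34 and 7.31 in the RNA labelled WT. The channels overlapped over nearly their whole range. The mean log2 ratio was 0.013 ± 0.015 (SD, n = 3), with a 95% confidence interval of -0.06 to 0.09 (limma, adjusted p = 0.77).

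Lgals1 encodes galectin-1, a small dimeric galectin with a part in the proliferation of adult neural stem cells. Its only probe, A_51_P465281 on chromosome 15 from 79013088 to 79013147 (mm7), had a spot signal of 46805, 65205 and 61700 in the channel labelled KO, against 65184 on each array in the channel labelled WT. The scanner marked the channel labelled WT as saturated on all 3 arrays and the channel labelled KO on array 2. The reading labelled WT is therefore a floor, and no ratio or direction is given. Of the 26626 tested probes, 88 were saturated on every array in a channel, and Lgals1 was among them.

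Lgals3 encodes galectin-3, a galectin with a collagen-like tail that lets it form larger assemblies. It had a log2 intensity of 6.90, 6.91 and 7.02 in the RNA labelled KO, against 6.94, 7.07 and 7.10 in the RNA labelled WT. The channels overlapped, though the ratio was below 0 on 3 of 3 arrays, at -0.04, -0.17 and -0.08. The mean was -0.10 ± 0.06 (SD, n = 3), with adjusted p = 0.067 (limma). It passed in 3 of the 14 alternative settings, namely median centring (-0.21, adjusted p = 0.0342), the scanner software's processed signals (-0.18, adjusted p = 0.0497) and without array 1 (-0.12, adjusted p = 0.0424), and was below 0 in all 14.

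Microglia and macrophage markers stand beside the Lgals3 and Anxa3 values because both genes are expressed in those cells. Of the 10 markers, 6 were tested, of which 2 were higher, 1 was lower and 3 did not pass (limma), and Aif1, Itgam, Ptprc and Adgre1 were not well above background in either channel. Their summed intensity was 1233 to 1244 in the RNA labelled KO and 725 to 754 in the RNA labelled WT. Without Lyz2, the other 5 summed to 549 to 555 in the RNA labelled KO and 567 to 584 in the RNA labelled WT. These sums include an offset of 50 that the processing added to every signal. Csf1r, Cx3cr1 and Cd68, the other gene higher, had low spot signals of 60 to 83, over median backgrounds of 39.5 to 43. Lyz2, a lysozyme, was at a log2 ratio of 2.07 ± 0.04, while Tyrobp was lower at -0.28 ± 0.04 (SD, n = 3 each; limma, adjusted p = 1.1e-08 and 3.8e-04). Their part in the Anxa3 difference was not tested. The arrays cannot tell a change in the share of cells of a type from a change in RNA per cell.

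**Figure D3:**
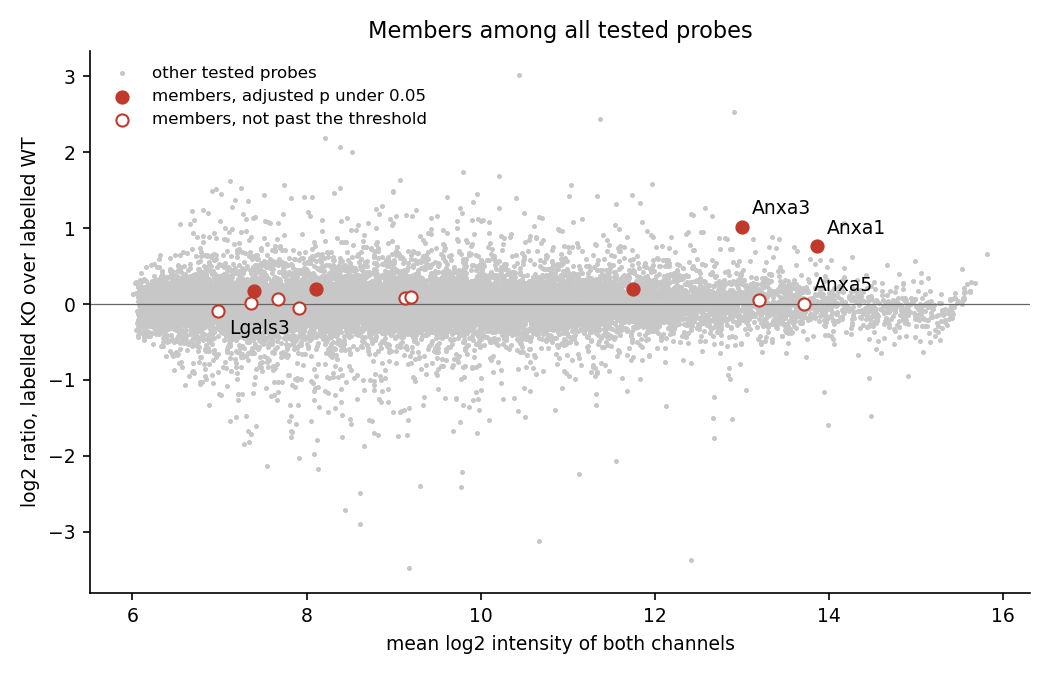
Mean log2 ratio, KO over WT as labelled (vertical axis) against mean log2 intensity of both channels (horizontal axis) for all 26538 measurable probes in grey and the 13 member probes in red, filled where the adjusted p was under 0.05. Anxa1 and Anxa3 stand at the upper edge of the cloud, and Anxa5 lies on the zero line.

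Promoters were compared because Dnmt3a methylates cytosine in the dinucleotide CG, though methylation was not measured in these files. RefSeq promoter sequences (GRCm38.p6) were matched by symbol for 7 of the 10 members, with 9 entries, and Anxa3, Anxa6 and Lgals1 had none in the table used. The 250 bases upstream of the start are shown for Anxa1, which was higher, and for Anxa5, which did not pass, with each CG in capitals, 5′ to 3′ on the gene's strand.
Anxa1, chr19:20390672-20390921, minus strand: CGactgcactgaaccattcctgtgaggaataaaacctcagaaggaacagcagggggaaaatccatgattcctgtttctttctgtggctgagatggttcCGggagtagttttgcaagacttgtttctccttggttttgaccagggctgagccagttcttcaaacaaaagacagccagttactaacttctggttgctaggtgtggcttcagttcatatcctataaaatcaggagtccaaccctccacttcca
Anxa5, chr3:36475888-36476137, minus strand: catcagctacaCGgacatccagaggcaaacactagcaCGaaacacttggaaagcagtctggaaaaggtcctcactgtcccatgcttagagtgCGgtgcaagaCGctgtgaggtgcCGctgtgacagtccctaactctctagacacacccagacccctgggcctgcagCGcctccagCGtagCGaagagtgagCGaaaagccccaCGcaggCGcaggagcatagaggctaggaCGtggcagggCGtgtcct
The Anxa1 window held 2 CG and the Anxa5 window 13. Of the 32851 promoters in the table, 29.0% held 2 or fewer, the count of Anxa1, the median count was 6, and 92.1% held at least 1 CG. The Anxa2 window held 9, the Lgals3 window 13 and the Anxa11 window 17. Anxa4 had entries with 13 and 2, and Anxa7 had entries with 2 and 16. The letters TATAAA, searched on both strands, were found in the Anxa1 and Anxa2 windows and in 12.4% of all promoters. These counts describe the letters in the window and say nothing of binding or methylation.

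Genes that work with annexins and galectins were drawn up as 7 lists of 68 genes, each read by its brightest probe. Of these, 66 had a probe under that name, 55 were tested, 29 were higher, 8 were lower and 18 did not pass (limma). Median centring turned this to 6 higher and 26 lower. Over all measurable probes the share of higher among calls was 46.5% with loess and 8.2% with median centring.

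The S100 and other proteins that bind annexins were higher in 6 of 7, with a median log2 ratio of 0.41. S100a4, a calcium-binding protein of motile cells, was 5.40-fold higher, at 2.43 ± 0.06 (SD, n = 3; limma, adjusted p = 6.1e-09), and stayed at or above 1.96 in every alternative setting. Ahnak, a giant scaffold protein held at the membrane by Anxa2 and S100a10, was at 0.49 ± 0.04, with 6 of its 6 probes higher (limma). S100a11, a partner of Anxa1, was at 0.47 ± 0.05. Median centring put Ahnak at -0.09 and S100a11 at -0.05, and neither passed there. S100a10, the partner of Anxa2, was at 0.12 ± 0.03 (limma, adjusted p = 0.021), and Pdcd6 did not pass at 0.04 ± 0.01 (SD, n = 3 each). S100a10, Pdcd6 and the genes named below only to spell out a small count were picked after their values were seen.

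Of the 12 other annexins and galectins on the array, 7 were tested, 4 were higher and 3 did not pass (limma), with a median log2 ratio of 0.11. Anxa8, an annexin of epithelia and of late endosomes, was highest at 1.00 ± 0.04 (SD, n = 3; adjusted p = 3.4e-07), with 10 spots on each array. Its size varied with the background treatment, at 0.21 with the background model fitted on all spots, 1.44 with an offset of 10 and 1.86 in the authors' deposited table. Anxa9 was at 0.26 ± 0.03, with a range of 0.04 to 0.68 over the settings and low spot signals of 81 to 104. Lgalsl, a galectin-like protein, was at 0.22 ± 0.06 and at -0.23 with median centring. Lgals9 was the other gene higher, Anxa13, Lgals4 and Lgals8 did not pass, and Anxa10, Lgals2, Lgals6, Lgals7 and Lgals12 were not well above background in either channel.

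In the plasminogen system, which Anxa2 serves, 4 of 7 tested genes were higher and 2 were lower, with a median of 0.24. Serpine2, a secreted protease inhibitor, was at 0.75 ± 0.13, and Plau, which encodes urokinase, was at 0.28 ± 0.05 (SD, n = 3 each; limma, adjusted p = 1.0e-05 and 4.0e-04). The other Plau probe did not pass. Plgrkt was also higher, and Plat and Plaur, which encode tissue plasminogen activator and the urokinase receptor, were the lower ones. Of the probes tested, 1 of 3 was lower for Plat and 1 of 2 for Plaur. With median centring Plau was at -0.10.

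Of the receptors and the enzyme tied to Anxa1, 2 of 6 genes were tested. Pla2g4a, the cytosolic phospholipase A2 that annexin A1 restrains, was at 0.56 ± 0.03 (SD, n = 3; limma, adjusted p = 6.1e-06). Fpr-rs3, a relative of the formyl peptide receptors, was lower at -0.14 ± 0.09 (adjusted p = 0.026) and ranged from -0.42 to -0.01 over the settings. The spot signal of Fpr-rs3 was low, at 63, 69 and 68 in the channel labelled KO and 84, 80 and 84 in the channel labelled WT, and its channels overlapped. Its call was lost in 5 of the 14 alternative settings (limma): without array 2 (adjusted p = 0.088), without array 3 (0.16), with the background model fitted on all spots (0.306), with median centring (0.454) and with the channels as independent samples (0.156). Fpr1, Fpr2 and Fpr-rs4 were not well above background in either channel, and no probe carried the name Fpr3. With median centring Pla2g4a was at 0.13 and did not pass.

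Membrane repair genes split: 3 of 10 tested were higher, 2 were lower and 5 did not pass (limma), with a median of 0.03. Myof, the dysferlin relative myoferlin, was at 0.77 ± 0.02 with 3 of 3 probes higher, and Pdcd6ip, which recruits the ESCRT machinery, was at 0.25 ± 0.05 with 2 of 4 probes higher. Cav1, which shapes caveolae, was lower at -0.87 ± 0.11 with 2 of 2 probes (SD, n = 3 each; limma, adjusted p = 3.0e-06). Capn2 was the other higher gene and Dysf the other lower one. Myof and Cav1 passed in every alternative setting, and Pdcd6ip was at -0.16 with median centring.

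**Figure D4:**
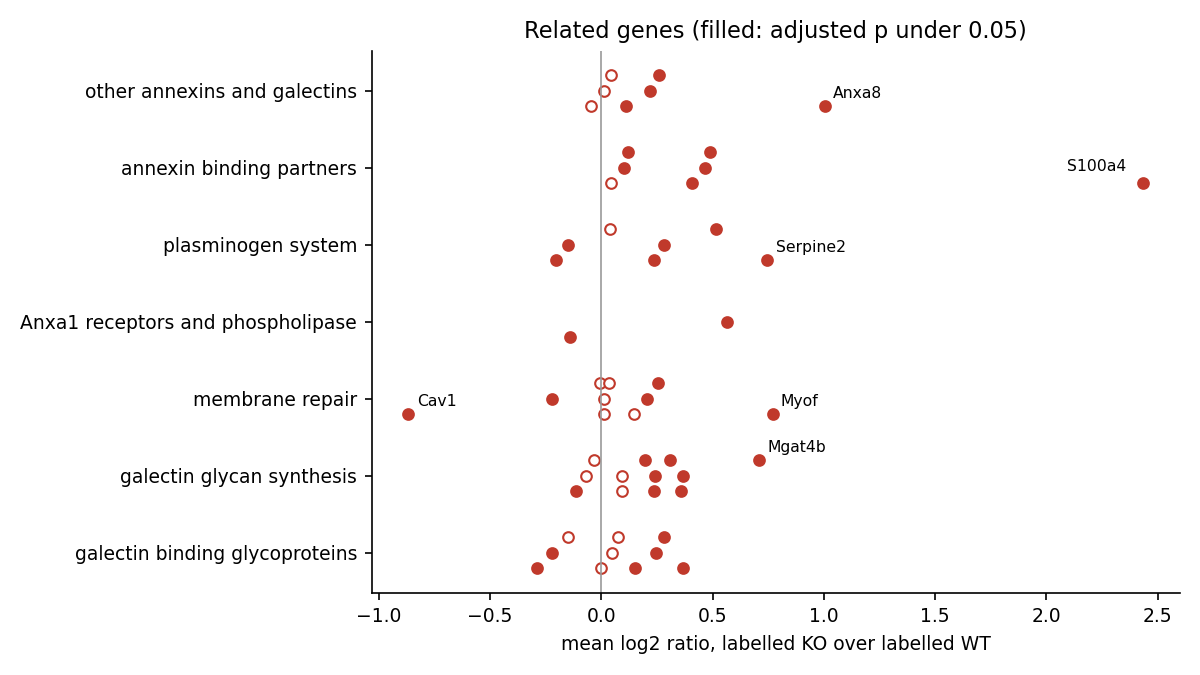
Mean log2 ratio, KO over WT as labelled (horizontal axis) for the 55 tested genes of 7 related lists (rows), each by its brightest probe, filled where the adjusted p was under 0.05. The annexin binding partners lie right of 0, with S100a4 at 2.43, and the membrane repair genes reach from Cav1 at -0.87 to Myof at 0.77.

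Galectins bind glycans that a chain of Golgi enzymes builds, and 7 of 12 tested enzymes were higher, 1 was lower and 4 did not pass (limma), with a median of 0.22. Mgat4b, a branching enzyme of N-glycans, was at 0.71 ± 0.05, Fut8, which adds core fucose, at 0.37 ± 0.04, and B3gnt2, which extends poly-lactosamine, at 0.36 ± 0.02 (SD, n = 3 each; adjusted p = 2.4e-06, 7.9e-05 and 7.0e-05). Both probes of Mgat4b and of B3gnt2 were higher, and 1 of the 2 of Fut8. Mgat5, whose branch is a preferred galectin-3 ligand, was the lower one. With median centring Mgat4b was at 0.19, Fut8 at 0.06 and B3gnt2 at -0.04, and none of the 3 passed.

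Among 10 glycoproteins that galectins bind, 4 were higher, 2 were lower and 4 did not pass (limma), with a median of 0.06. Cd44, the hyaluronan receptor, was at 0.37 ± 0.04 with 2 of 2 probes higher. Fn1, fibronectin, was at 0.28 ± 0.27 (SD, n = 3 each), with ratios of 0.59, 0.12 and 0.14, so array 1 stood apart there as it did for Anxa2 A_51_P165342. Of its 3 probes 1 was higher. Without array 1 the Fn1 mean was 0.13, and it passed in 8 of the 14 alternative settings (limma). Nrp1, a semaphorin co-receptor, was lower at -0.29 ± 0.06 with 2 of 3 probes (limma, adjusted p = 4.1e-04). Itgb1, with 1 of 2 probes, and Lamc1 were the other higher genes and Itga5 the other lower one. Cd44 was at -0.06 and Fn1 at -0.17 with median centring.

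**Figure D5:**
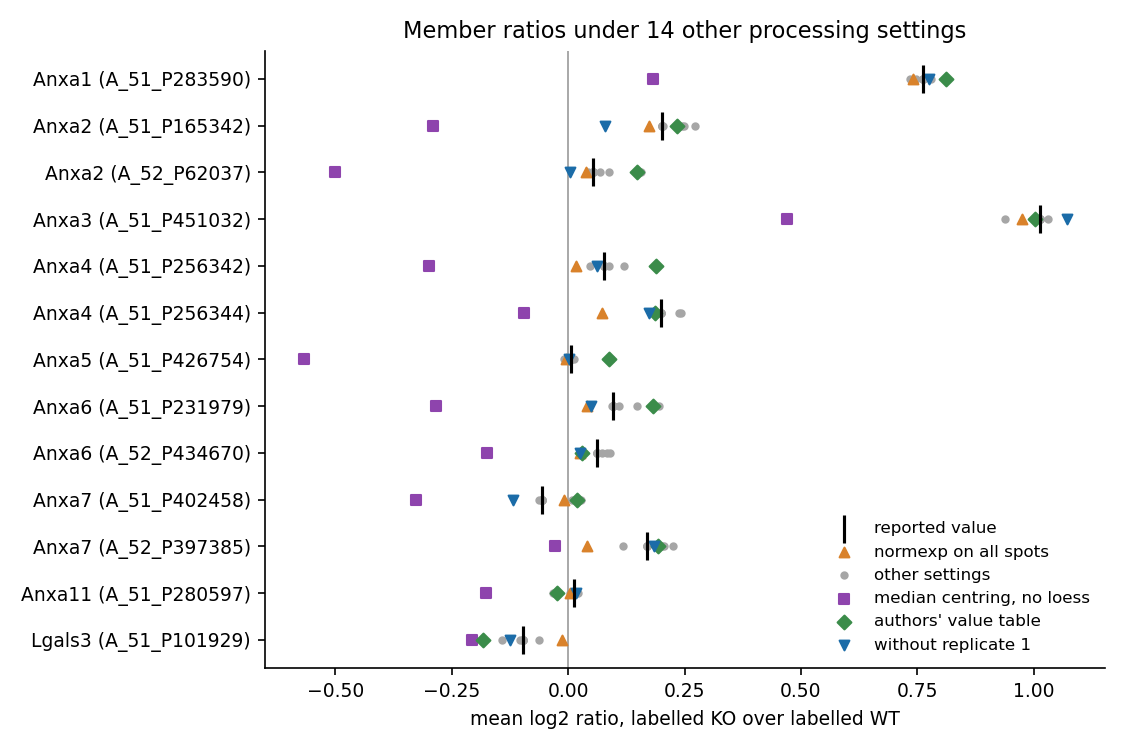
Mean log2 ratio, KO over WT as labelled (horizontal axis) of the 13 measurable member probes (rows) as reported (black bar) and under 14 other processing settings (symbols). Median centring lies left of the other settings for every probe, and Anxa3 and Anxa1 have the highest ratios in each setting.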

How the data were processed

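The authors deposited Agilent Feature Extraction 9.5.3.1 output. Per the file headers, the mean spot and median background columns hold uncorrected intensity, and the processed columns hold intensity that this software had background-corrected and dye-normalized. The log10 ratio (red over green, per the file headers) was used only to check the authors' deposited table, which correlated with it at r = -0.998 to -0.993 and was therefore read as log2 of KO over WT, as labelled. Its centring and scaling are not stated in the labels or headers. Its column medians were 0.0272, 0.0231 and 0.0193.

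Signals were corrected with normexp (offset 50, limma 3.58.1 in R 4.3.3), fitted on spots without the scanner's outlier marks, a choice taken from earlier results of these data. Loess normalization was applied to the ratios of each array, and log2 values were averaged over the spots of a probe. Testing needed a signal well above background on all 3 arrays in at least 1 channel, which 26626 probes had. A probe saturated on all 3 arrays in a channel stayed in the fit but was not counted or given a ratio. The test was limma's lmFit and eBayes against 0, two-sided, with 2 residual degrees of freedom per probe. The number of arrays limits the precision.

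Every member probe is named. From each related list up to 3 genes of largest absolute ratio past the threshold with 1 sign on all arrays are named, and from marker lists up to 2. A gene that this rule names is not reported here. The members, lists and tests were chosen with earlier results of these data known. Related genes are named by accession or current symbol, and promoters are from RefSeq (GRCm38.p6). The 14 alternatives cover background, normalization, filter, unit, saturation, prior, pairing and each array left out.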

Additional observations from a re-analysis of the deposited data

How the results depend on the processing

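Anxa3 passed in all 14 alternatives and Anxa1 in 13, losing its call with median centring alone. Against 5 member probes higher and 0 lower as reported, there were 2 higher with the background model fitted on all spots, 3 with the authors' deposited values, 2 with 1 probe per gene (9 probes), and 1 higher and 7 lower with median centring. The scanner's processed signals gave 1 lower. Leaving out each array gave 4 to 5 higher and 0 to 1 lower. Over all probes, the count of 5461 higher and 6289 lower became 2650 and 3667 with the model on all spots and 1193 and 13357 with median centring. For the listed genes, 29 higher and 8 lower became 6 and 26 with median centring, and the lower count was 5 with the processed signals and with the authors' values. A ratio within an array pairs the channels by construction. With no replicate block, treating the channels as independent, 3 member probes were higher, and 3610 probes were higher and 4094 lower over the array.

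Directions that turned with median centring, all of them at lower values, were those of Anxa2 (-0.29 and -0.50), Anxa4 (-0.30 and -0.095), Anxa5 (-0.57), Anxa6 (-0.28 and -0.18), Anxa7 A_52_P397385 (-0.028), Anxa11 (-0.18), Ahnak (-0.095), S100a11 (-0.053), Lgalsl (-0.23), Pdcd6ip (-0.16), Plau (-0.10), B3gnt2 (-0.040), Cd44 (-0.060) and Fn1 (-0.17). Values close to 0 also changed sign for Anxa5 (-0.0047 with the model on all spots, -0.0087 with an offset of 10), Anxa11 (-0.032 with the processed signals, -0.025 in the authors' deposited table) and Anxa7 A_51_P402458 (0.027 and 0.019 in those settings, and -0.12 to 0.0076 with an array left out). With median centring the median of the tested probes was itself at -0.22. Values given above for that setting that lie between -0.22 and 0 were below 0 but above that median. The cause of the sign changes was not tested. Probes near background have ratios drawn toward 0 by the offset.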

Other observations

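A further probe is described in the files as an annexin A7 product but carries another gene name and was not among the members. That probe, A_52_P534355, had a mean log2 ratio of 0.001 ± 0.110 (SD, n = 3; limma, adjusted p = 0.99). Grifin, a galectin-related protein of the lens, was at -0.02 ± 0.13 (SD, n = 3; limma, adjusted p = 0.76). Both probes had low spot signals, 62 to 73 for A_52_P534355 and 59 to 67 for Grifin, where the offset draws ratios toward 0. Among markers of other cell types, Postn was higher at 0.95 ± 0.03, with 1 of its 2 probes, and Aldh1l1, an astrocyte enzyme, was lower at -1.01 ± 0.06 (SD, n = 3 each). Of the 5 astrocyte markers tested, 2 were lower and 3 did not pass (limma). The neuronal genes Dcx and Tubb3 were lower at -0.53 ± 0.11 and -0.23 ± 0.04, and the other 4 of 6 neuronal markers did not pass. Of the 3 embryonic stem cell markers tested, Dppa5a was higher at 0.17 ± 0.06, with 1 of its 2 probes, and Tdgf1 and Utf1 did not pass (limma). Pou5f1, Nanog and Zfp42 were not well above background in either channel.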
